A study of Homo sapiens with 42 samples.

Results

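Chromatin loops were followed at the loci of EGR1, EGR2, EGR3 and ATF3 in K562 cells, a line of human leukemia cells, during treatment with 25 nM PMA (phorbol 12-myristate 13-acetate, an activator of protein kinase C). A loop here is a pair of 10 kb anchors on 1 chromosome whose contacts were counted by in situ Hi-C, an assay that joins and sequences DNA ends lying close together in crosslinked nuclei. Loops were included when an anchor started in a window around 1 of the 4 genes. The windows were chr5:138100000-138900000 for EGR1, chr10:62500000-63200000 for EGR2, chr8:22400000-23000000 for EGR3 and chr1:212200000-213000000 for ATF3 (hg38). Of 33914 loops in the series, 69 met this rule, 14 at EGR1, 21 at EGR2, 16 at EGR3 and 18 at ATF3. The locations of the loops chose them and their counts did not. Loop20462 at EGR2 and loop2872 and loop2859 at ATF3 are included through an anchor at the very upper limit of the window.

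All cells carried the wild-type genotype of the line, and the groups were cells at 0 h of PMA and cells after 6 h and 72 h of PMA, with 4 biological replicates each. The series describes the treatment as one that turns the cells toward megakaryocytes, with fresh medium given during the longer course. K562 is a single cell line in culture, and these data hold no expression, so neither the cell state nor the RNA of the 4 genes could be checked here. The design asks how contacts at these loci differ before, early in and late in the treatment.

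The EGR genes encode zinc finger transcription factors, and ATF3 encodes a basic leucine zipper factor of the ATF/CREB family. All are immediate early or early response genes: signals that pass through protein kinase C and the MAP kinases act on serum response factor and its ELK partners, which bind CArG boxes in the promoters, and on CREB and ATF proteins, which bind cAMP response elements. EGR factors bind GC-rich sites and induce their own corepressors NAB1 and NAB2, and EGR1 is known to be induced by PMA in K562 and other blood cell lines. Loops that bring promoters to distal elements are commonly held at their feet by CTCF and cohesin, and a count between anchors holds both the loop and the local background of contacts.

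Of the 4 genes, EGR2 lies wholly in a loop anchor and EGR1 lies in none, so the promoters of these 2 are shown. Both are the 250 bases before an annotated start of transcription in RefSeq (GRCh38.p14), written along the transcribed strand. EGR1 starts at position 138465479 of chromosome 5 on the plus strand, and its sequence covers chr5:138465229-138465478. EGR2 has 3 annotated starts, all inside the anchor of loop20451 described further on, and the one shown lies at position 62816366 of chromosome 10 on the minus strand, after chr10:62816367-62816616. Capitals mark matches to a CArG box, to TGACG, the core of a cAMP response element, and to GCGNGGGCG, a site of EGR factors, each searched on both strands.
EGR1 promoter: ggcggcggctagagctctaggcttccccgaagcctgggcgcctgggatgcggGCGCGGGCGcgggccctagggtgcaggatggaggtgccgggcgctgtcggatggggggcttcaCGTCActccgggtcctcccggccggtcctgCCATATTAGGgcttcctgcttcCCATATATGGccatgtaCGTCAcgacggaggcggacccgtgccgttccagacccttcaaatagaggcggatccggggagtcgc
EGR2 promoter: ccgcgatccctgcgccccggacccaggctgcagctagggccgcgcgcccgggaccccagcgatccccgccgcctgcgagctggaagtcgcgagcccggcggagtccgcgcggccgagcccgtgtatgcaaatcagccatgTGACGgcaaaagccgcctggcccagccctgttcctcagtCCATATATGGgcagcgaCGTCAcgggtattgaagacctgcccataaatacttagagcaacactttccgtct

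The EGR1 sequence held 2 CArG boxes, whose first printed bases lie 105 and 83 bases before the start, 2 TGACG cores at 135 and 66 bases and 1 GCGNGGGCG site at 198 bases. The EGR2 sequence held 1 CArG box at 71 bases and 2 TGACG cores at 110 and 54 bases. Of 35116 promoter windows of 250 bases in the same table, 1.16% held a CArG box, 21.2% a TGACG core (which the full element TGACGTCA also contains) and 8.41% a GCGNGGGCG site. The full TGACGTCA, in 1.65% of windows, and TGANTCA, an AP-1 site in 6.57%, had no match in either. The other EGR2 starts and the 2 ATF3 starts searched had no match to any of these 5 motifs, and EGR3 is named only. Promoters at any other ATF3 start were not searched, so the absence of a match covers these 2 windows only. A match describes the letters and does not show binding.

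Technical replicates were summed into 12 libraries of 736929 to 1472197 contacts. Counts are given as normalized contacts, per 1000000 contacts over the tested loops after each library's total was multiplied by its TMM factor (edgeR's scaling between libraries), and changes as log2 fold changes with a standard error (SE) and an adjusted p from edgeR's quasi-likelihood test over 24132 loops, with a threshold of 0.05. The 72 h libraries 3 and 4 differed by no more than sampling noise (a chi-square per degree of freedom of 1.003 over 24106 loops, where the 5 other pairs at 72 h had 1.06 or more) and were counted as 1 sample in means and SDs, so n = 3 at 72 h. Replicates 3 and 4 were also the closest pair at 0 h, with 1.02, and at 6 h, with 1.02. The tests and the statements on overlap keep all 12 libraries, so p-values within replicates 3 and 4 rest on a 72 h group that counts as 1 sample in the means. With the 72 h pair summed into 1 library in the fit, 13, 22 and 16 loops passed in the comparisons given in the next paragraph, and 0 of 36 calls of the loops described in full were lost. Of 24795 loops tested in that fit, 1535, 7973 and 4720 passed. Values in each library are listed in the order of replicates 1 to 4. The libraries of replicates 1 and 2 were each built from 3 technical replicates and those of replicates 3 and 4 from 2, sequenced 2 times, so for the loops described in full the called changes are also given within each of these batches.

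At 6 h, 13 of the 67 tested loops of the 4 loci passed the test, 8 that rose and 5 that fell, a share of 19.4%. Of all tested loops 6.41% passed, 2.34% rising and 4.07% falling. At 72 h, 23 passed, 15 that rose and 8 that fell, which is 34.3% against 33.6% of all tested loops (16.7% up and 16.9% down), so the share at the 4 loci was near the background. Between 6 h and 72 h, 17 passed, 7 that rose and 10 that fell, or 25.4% against 20.5% of all tested loops, of which 10.7% rose and 9.81% fell. The remaining 2 loops, loop20437 at EGR2 and loop2855 at ATF3, were not tested because of low counts.

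The loops that passed were also counted by locus, where 6.41% of all tested loops passed at 6 h and 33.6% at 72 h. At EGR1, 1 of 14 tested loops passed at 6 h and 1 at 72 h. At EGR2, 5 of 20 passed at 6 h and 11 at 72 h, and at ATF3, 4 of 17 and 8. At EGR3, 3 of 16 passed at each time. No test of these counts between loci was made, so they do not show that the loci differ. Loops of a locus can share an anchor, as 6 loops at EGR2 do at NRBF2, and are then not separate cases. The median log2 fold change over all 67 loops was 0.16 at 6 h and 0.15 at 72 h, against 0.01 at both times over all tested loops. The median by locus at 6 h and 72 h was 0.05 and -0.0029 at EGR1, 0.16 and 0.32 at EGR2, 0.06 and 0.19 at EGR3, and 0.33 and 0.01 at ATF3.

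In 16 loops the 4 libraries at 6 h did not overlap with the 4 at 0 h, against 10.7% of all tested loops. The number was 21 at 72 h against 0 h, where the background was 28.3%, and 16 at 72 h against 6 h, where it was 19.8%. Without 0 h replicate 1, the count at 6 h became 6, while the calls over all tested loops went from 1546 of 24132 to 709 of 24815. The count of 17 between 6 h and 72 h became 8 without 6 h replicate 1 and 10 without 72 h replicate 1. Over all tested loops these calls went from 4945 to 3676 and to 3768. When libraries were scaled to their totals, 11 loops rose and 4 fell at 6 h, and over all tested loops the split of 565 up and 981 down became 769 and 731.

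**Figure D1:**
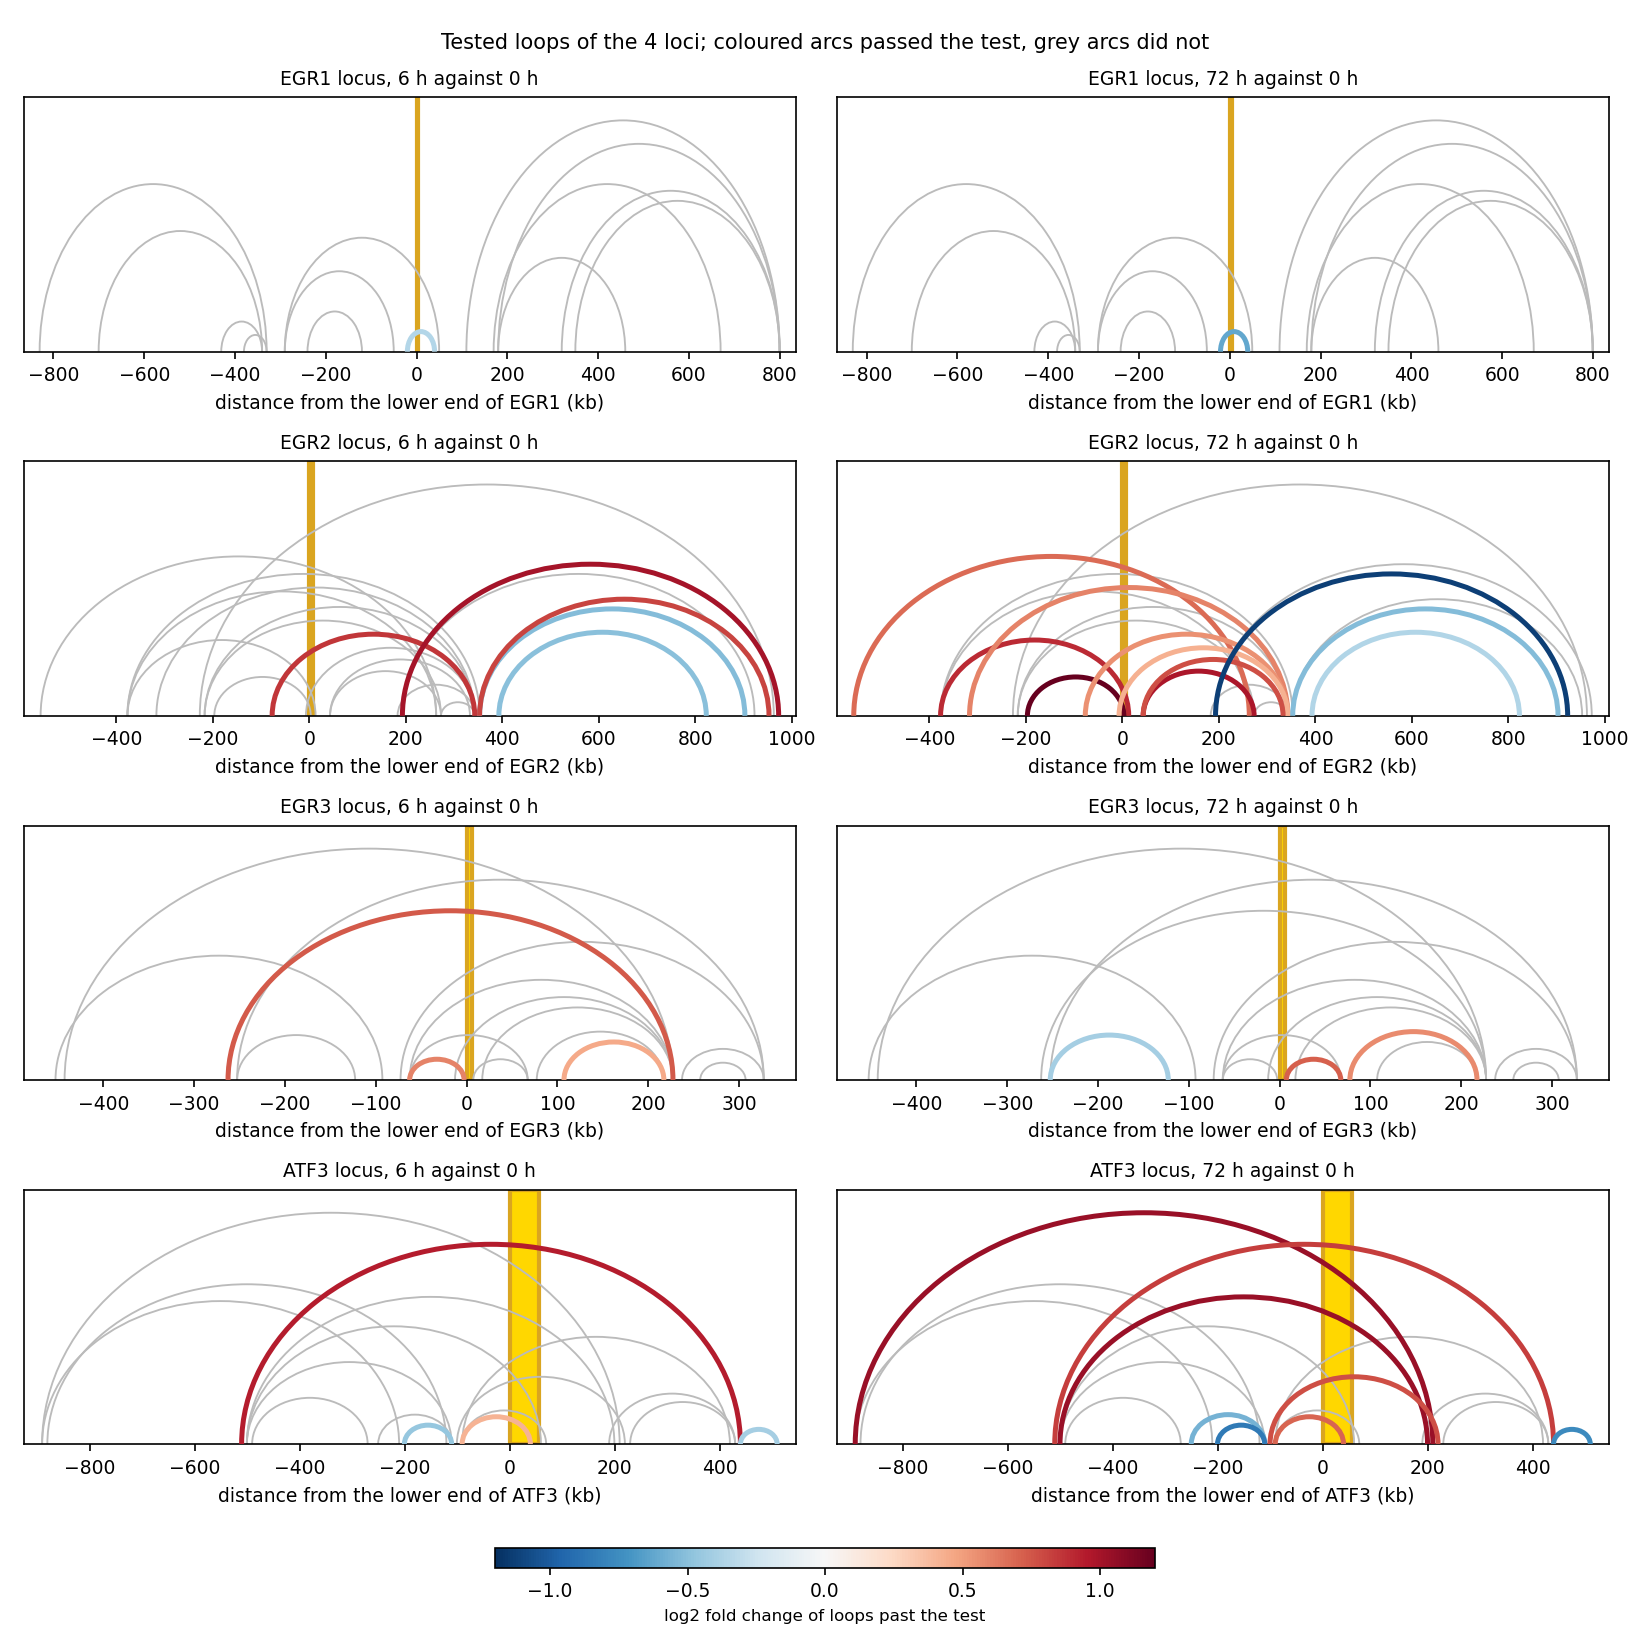
The tested loops of the 4 loci are drawn as arcs over the distance from the lower coordinate of each gene in kb, with the gene as a gold band and 6 h against 0 h on the left and 72 h against 0 h on the right. Colour gives the log2 fold change of loops that passed the test (red up, blue down), and grey arcs did not pass. EGR2 has the most coloured arcs at 72 h, 8 up and 3 down, and EGR1 has a single one at each time.

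The short loop around EGR1 fell with treatment. EGR1 itself (chr5:138465479-138469303) has no loop anchor on it, and it lies inside a short loop of 60 kb, loop12542, that joins chr5:138440001-138450000, at the end of REEP2, a gene for a protein that shapes the endoplasmic reticulum, and chr5:138500001-138510000, at the end of ETF1, which encodes the release factor of translation. This loop had the highest mean count of the locus and was the only one of 14 that passed at 6 h or at 72 h against 0 h. The nearer edge of its anchors lies 15479 bp from EGR1.

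Loop12542 had 146, 126, 152 and 166 at 0 h, 128, 114, 99.1 and 112 at 6 h and 104, 90.4, 85.3 and 95.5 at 72 h. Its means were 147 ± 16.5 before PMA, 113 ± 12.02 at 6 h (both SD, n = 4), then 95.04 ± 8.09 at 72 h (SD, n = 3). All 72 h libraries lay below all 0 h libraries, while at 6 h the ranges met. The log2 fold change was -0.35 (SE 0.11, adjusted p = 0.0272) at 6 h and -0.63 (SE 0.11, adjusted p = 9.19e-07) at 72 h. Between 6 h and 72 h the difference was -0.28 (SE 0.11, adjusted p = 0.0712), which did not pass, though it passed without 6 h replicate 3 (adjusted p = 0.0441). Tested loops of like length, no more than 25% shorter or longer than loop12542, had medians of -0.12 and -0.19 at these times. At 72 h the change was -0.49 within replicates 1 and 2 (adjusted p = 0.0127) and -0.80 within replicates 3 and 4 (adjusted p = 8.13e-06). At 6 h it was -0.18 within replicates 1 and 2 (adjusted p = 0.593) and -0.58 within replicates 3 and 4 (adjusted p = 0.0212). The 6 h call was lost without 0 h replicate 1 or 3 or 4 or 6 h replicate 2 or 3 (adjusted p up to 0.112), under DESeq2 (adjusted p = 0.0706), with replicates 3 and 4 summed at every time (adjusted p = 0.0660) and with a correction for loop length, where it was -0.23 (adjusted p = 0.191).

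The other 13 loops at EGR1 did not pass against 0 h. Loop12544, of 500 kb between 138630001 and 139130001 beyond the gene, was 26.1, 18.0, 25.1 and 26.2 at 0 h, 32.4, 29.9, 36.8 and 27.7 at 6 h and 21.2, 19.1, 21.8 and 19.6 at 72 h. Its 4 libraries at 72 h lay below the 4 at 6 h, and the difference was -0.58 (SE 0.19, adjusted p = 0.0226), with -0.59 within replicates 1 and 2 (adjusted p = 0.144) and -0.58 within replicates 3 and 4 (adjusted p = 0.183). The call was lost without 6 h replicate 1 or 3 or 72 h replicate 2 (adjusted p up to 0.0631) and under DESeq2 (adjusted p = 0.101). Loop12539 also fell between 6 h and 72 h, with a log2 fold change of -0.37 (SE 0.13, adjusted p = 0.0293). The 4 loops that meet in the anchor from 139260001 to 139270000 did not pass in any comparison. The second loop that spans EGR1, loop12540 of 340 kb, changed by 0.15 (SE 0.19, adjusted p = 0.560) at 72 h.

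The loop anchored on EGR2 rose late. The gene (chr10:62811996-62819167) lies wholly in the anchor chr10:62810001-62820000 of loop20451, which joins it to chr10:62610001-62620000, 200 kb away, where no end of a protein-coding gene lies. The whole promoter shown above, with its CArG box and TGACG cores, falls in this anchor. Loop20451 had the largest rise at 72 h of the 67 tested loops of the 4 loci.

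Loop20451 had 36.9, 32.3, 50.2 and 33.0 at 0 h, 37.3, 37.4, 62.3 and 57.9 at 6 h and 82.3, 94.4, 89.4 and 88.4 at 72 h. Each library at 72 h lay above all libraries at 0 h and 6 h, while 6 h and 0 h overlapped. The means were 38.1 ± 8.32 before PMA, 48.7 ± 13.3 at 6 h (both SD, n = 4), then 88.5 ± 6.06 at 72 h (SD, n = 3). The log2 fold change was 0.31 (SE 0.16, adjusted p = 0.262) at 6 h, which did not pass, and 1.19 (SE 0.14, adjusted p = 1.17e-12) at 72 h, or 2.29-fold. From 6 h to 72 h it rose by 0.88 (SE 0.14, adjusted p = 3.28e-07). Loops of like length had a median of -0.07 at 72 h. The 72 h change was 1.28 within replicates 1 and 2 (adjusted p = 2.24e-08) and 1.07 within replicates 3 and 4 (adjusted p = 1.42e-05). The change from 6 h to 72 h was 1.19 within replicates 1 and 2 (adjusted p = 1.46e-06) and 0.55 within replicates 3 and 4 (adjusted p = 0.0384). Both passed under every alternative that was run.

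**Figure D2:**
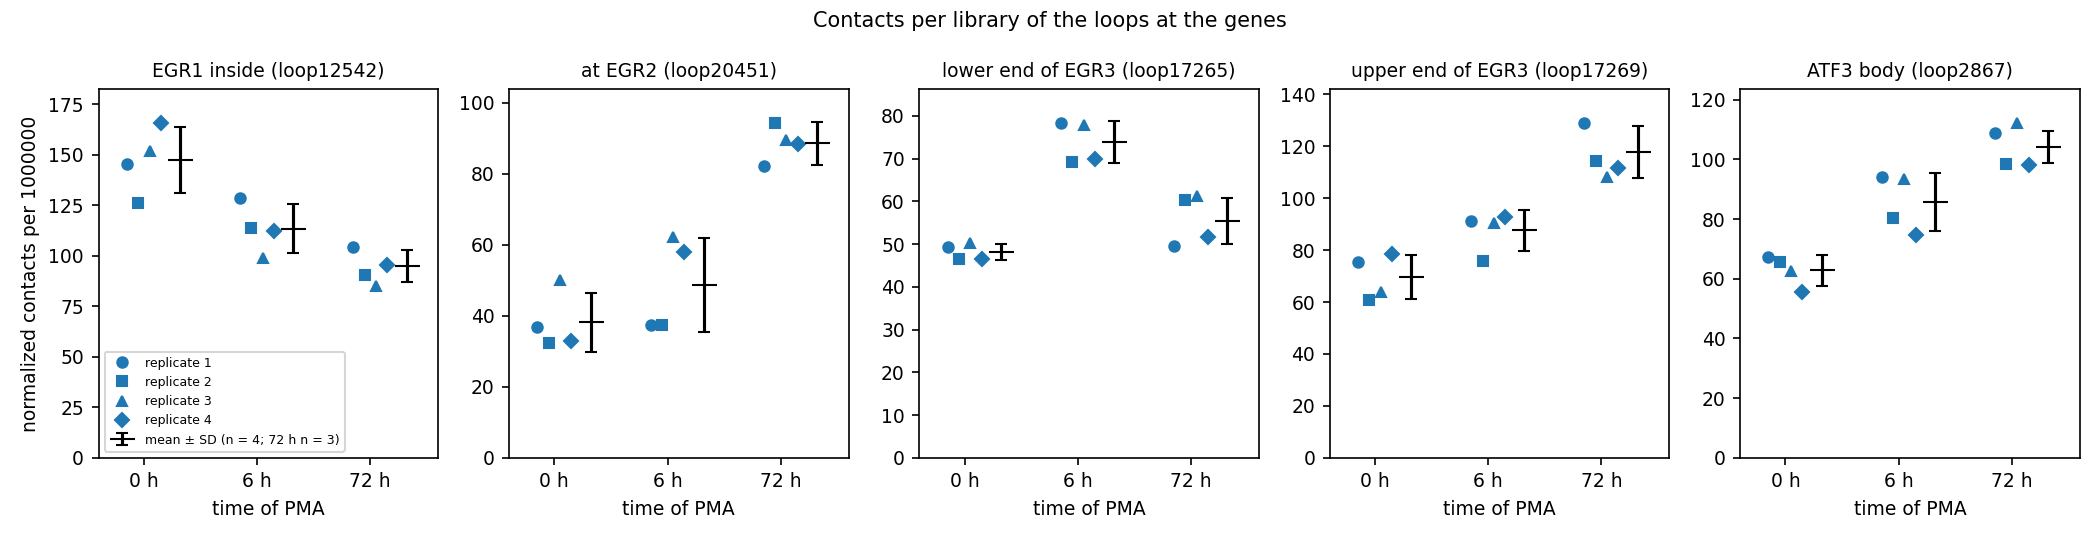
Normalized contacts per 1000000 (vertical axis, from 0) of the loop around EGR1 and of 4 loops with an anchor on EGR2, EGR3 or ATF3, at 0 h, 6 h and 72 h. Loop2861 at the upper end of ATF3, which did not pass, is not drawn. Symbols mark the 4 replicates, and bars give the mean ± SD with n = 4 at 0 h and 6 h and n = 3 at 72 h. The loop around EGR1 goes from a mean of 147 to 95.04, the EGR2 loop from 38.1 to 88.5, and the loop at the lower end of EGR3 is highest at 6 h.

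Around EGR2, 7 more loops rose at 72 h, with log2 fold changes of 0.43 to 0.98, and 3 fell. Both loops from chr10:62850001-62860000 rose: loop20454 by 0.98 (SE 0.15, adjusted p = 2.75e-08) and loop20455 by 0.77 (SE 0.16, adjusted p = 5.02e-05). These and loop20443, with 0.89 (SE 0.24, adjusted p = 0.00172), were picked out after their values were seen. Loop20454 had means of 31.9 at 0 h, 39.7 at 6 h and 66.0 at 72 h, loop20455 of 29.5 at 0 h, 31.5 at 6 h and 51.2 at 72 h and loop20443 of 10.3 at 0 h, 11.5 at 6 h and 21.4 at 72 h. In each of the 3 loops every library at 72 h lay above every library at 0 h and at 6 h. Between 6 h and 72 h, loop20450 across EGR2 rose, with 0.42 (SE 0.16, adjusted p = 0.0494), and loop20456 beyond it fell, with -0.42 (SE 0.16, adjusted p = 0.0488).

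The anchor at NRBF2 (chr10:63150001-63160000), a gene for a regulator of autophagy, holds 6 loops of the locus, of which 3 rose at 72 h. Loop20452 joins it to chr10:62730001-62740000 across EGR2 and had 11.6, 11.4, 21.3 and 14.8 at 0 h, 24.5, 26.2, 34.0 and 26.5 at 6 h and 25.7, 21.1, 22.9 and 17.0 at 72 h. Its 4 libraries at 6 h lay above those at 0 h, and the 72 h libraries overlapped with both. The log2 fold change was 0.86 (SE 0.22, adjusted p = 0.00590) at 6 h and 0.55 (SE 0.22, adjusted p = 0.0414) at 72 h. Within batches, the 6 h change was 1.02 within replicates 1 and 2 (adjusted p = 0.0407) and 0.68 within replicates 3 and 4 (adjusted p = 0.293), and the 72 h change was 0.91 within replicates 1 and 2 (adjusted p = 0.0204) and 0.12 within replicates 3 and 4 (adjusted p = 0.824). The 6 h call was lost without 0 h replicate 1 (adjusted p up to 0.0615), and the 72 h call without 0 h replicate 1 or 2 or 4 or 72 h replicate 1 or 2 or 3 (adjusted p up to 0.187), under DESeq2 (adjusted p = 0.144) and with the length correction, where it was 0.51 (adjusted p = 0.0687). Loop20459, of 70 kb from NRBF2, had the highest count of the locus with means of 76.1 at 0 h, 83.6 at 6 h and 89.4 at 72 h, and its change of 0.22 (SE 0.12, adjusted p = 0.150) at 72 h did not pass, though with the length correction it did, at 0.32 (adjusted p = 0.0270).

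Farther along, 2 pairs of loops run from a common anchor to partners 50 kb apart. The partners start at 63710001 and 63760001 in the first pair and at 63730001 and 63780001 in the second. Both pairs thus reach neighbouring anchors of 1 stretch and are not separate cases. In the first pair the nearer loop fell at 6 h and the farther loop rose, and in the second the farther loop rose. The first pair starts at chr10:63160001-63170000, which holds an end of JMJD1C, a gene of the jumonji family of histone demethylases. From this anchor, loop20460 to chr10:63710001-63720000 fell and loop20461 to chr10:63760001-63770000 rose. Loop20460 had 82.6, 80.7, 75.3 and 86.4 at 0 h, 49.0, 55.1, 55.2 and 66.4 at 6 h and 55.7, 57.2, 63.4 and 50.0 at 72 h, and loop20461 had 32.6, 26.6, 36.4 and 34.1 at 0 h, 66.7, 56.1, 65.1 and 43.4 at 6 h and 36.3, 38.1, 38.5 and 45.5 at 72 h. For both loops, the libraries at 6 h did not overlap with those at 0 h. At 6 h the log2 fold change was -0.52 (SE 0.13, adjusted p = 0.00595) for loop20460 and 0.81 (SE 0.16, adjusted p = 1.97e-04) for loop20461. At 72 h it was -0.52 (SE 0.13, adjusted p = 6.94e-04) for loop20460, which stayed low, and 0.29 (SE 0.17, adjusted p = 0.168) for loop20461, which did not pass. From 6 h to 72 h loop20461 fell, with -0.52 (SE 0.15, adjusted p = 0.00703), a call lost without 6 h replicate 1 (adjusted p up to 0.0527) and under DESeq2 (adjusted p = 0.0577).

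Both batches gave the same signs for this pair at 6 h, which follows from the lack of overlap between 6 h and 0 h in each loop. Loop20460 was -0.64 within replicates 1 and 2 (adjusted p = 0.0293) and -0.39 within replicates 3 and 4 (adjusted p = 0.337). Loop20461 was 0.98 within replicates 1 and 2 (adjusted p = 0.00162) and 0.57 within replicates 3 and 4 (adjusted p = 0.232). At 72 h loop20460 was -0.53 within replicates 1 and 2 (adjusted p = 0.0184) and -0.51 within replicates 3 and 4 (adjusted p = 0.0334), and from 6 h to 72 h loop20461 was -0.70 within replicates 1 and 2 (adjusted p = 0.0140) and -0.32 within replicates 3 and 4 (adjusted p = 0.364). The ratio of the farther to the nearer loop was 0.401 ± 0.0632 before PMA, 1.05 ± 0.30 at 6 h (both SD, n = 4), then 0.692 ± 0.0582 at 72 h (SD, n = 3). It lay between 0.329 and 0.483 before PMA and between 0.655 and 1.36 at 6 h. That these ratios did not overlap also follows from the lack of overlap in each loop and adds nothing to it. This ratio was computed after the values were seen and is given without a test.

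The second pair starts at chr10:63000001-63010000, where loop20457 reaches chr10:63730001-63740000 and loop20458 reaches chr10:63780001-63790000. Loop20457 had 31.1, 31.3, 26.3 and 25.0 at 0 h, 26.5, 26.2, 22.6 and 16.9 at 6 h and 8.85, 13.1, 14.6 and 12.5 at 72 h. Loop20458 had 10.9, 19.9, 16.3 and 6.82 at 0 h, 30.4, 29.0, 24.1 and 30.2 at 6 h and 5.31, 7.03, 17.7 and 8.93 at 72 h. Loop20457 was lowest at 72 h in all libraries, and loop20458 was highest at 6 h in all libraries. Loop20457 changed by -0.28 (SE 0.20, adjusted p = 0.432) at 6 h, which did not pass, and by -1.13 (SE 0.21, adjusted p = 8.08e-06) at 72 h, or 0.457 times the 0 h level. Loop20458 changed by 0.99 (SE 0.22, adjusted p = 0.00161) at 6 h and -0.42 (SE 0.26, adjusted p = 0.214) at 72 h, and from 6 h to 72 h by -1.41 (SE 0.24, adjusted p = 1.98e-06), the largest fall of the 67 loops. Within batches, loop20457 at 72 h was -1.40 within replicates 1 and 2 (adjusted p = 1.26e-04) and -0.83 within replicates 3 and 4 (adjusted p = 0.0449). From 6 h to 72 h loop20457 fell, with -0.85 (SE 0.23, adjusted p = 0.00368), and with -1.16 within replicates 1 and 2 (adjusted p = 0.00715) and -0.47 within replicates 3 and 4 (adjusted p = 0.399). Loop20458 at 6 h was 0.91 within replicates 1 and 2 (adjusted p = 0.0537) and 1.12 within replicates 3 and 4 (adjusted p = 0.0822), and from 6 h to 72 h -2.0 within replicates 1 and 2 (adjusted p = 8.22e-06) and -0.96 within replicates 3 and 4 (adjusted p = 0.0454). For 72 h against 0 h the batches differed in sign for loop20458, with -1.08 within replicates 1 and 2 (adjusted p = 0.0276) and 0.16 within replicates 3 and 4 (adjusted p = 0.804), and the fall passed without 72 h replicate 3, at -0.77 (adjusted p = 0.0345). The ratio of the farther to the nearer loop was 0.469 ± 0.186 before PMA, 1.28 ± 0.342 at 6 h (both SD, n = 4), then 0.701 ± 0.230 at 72 h (SD, n = 3).

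**Figure D3:**
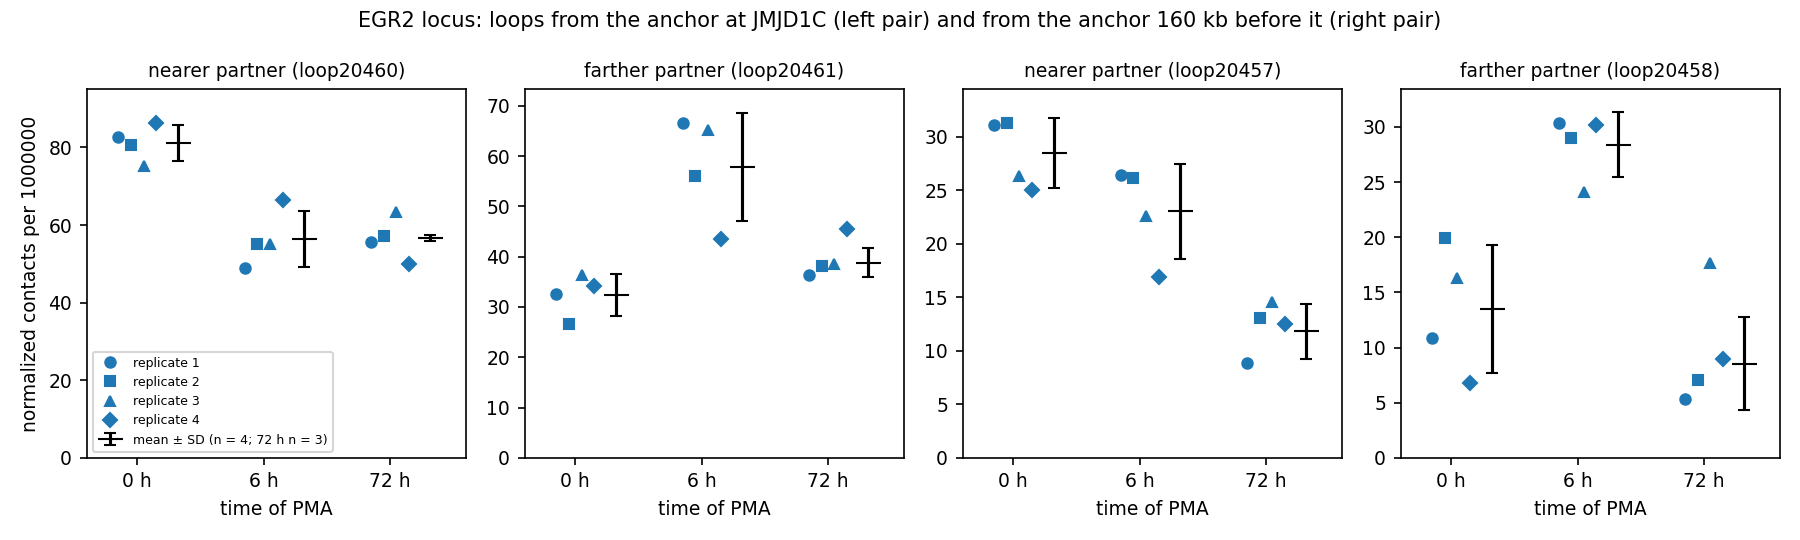
Normalized contacts per 1000000 (vertical axes, from 0) at 0 h, 6 h and 72 h of the 2 pairs of loops at EGR2 that share an anchor, with symbols for replicates and bars for the mean ± SD (n = 4 at 0 h and 6 h, n = 3 at 72 h). In each pair the farther partner is highest at 6 h, with means of 57.8 and 28.4, while the nearer partner is highest at 0 h.

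Loop20462, at the edge of the window, fell at both times, with means of 73.2 ± 9.15 before PMA, 50.4 ± 5.80 at 6 h (both SD, n = 4), then 56.5 ± 7.07 at 72 h (SD, n = 3). Its log2 fold changes were -0.50 (SE 0.14, adjusted p = 0.0131) and -0.36 (SE 0.13, adjusted p = 0.0222). Within batches the 6 h change was -0.40 within replicates 1 and 2 (adjusted p = 0.251) and -0.65 within replicates 3 and 4 (adjusted p = 0.0817), and the 72 h change was -0.27 within replicates 1 and 2 (adjusted p = 0.289) and -0.49 within replicates 3 and 4 (adjusted p = 0.0412). The 6 h call was lost without 0 h replicate 1 or 6 h replicate 1 (adjusted p up to 0.0639) and under DESeq2 (adjusted p = 0.0543). The 72 h call was lost without 0 h replicate 1 or 3 or 72 h replicate 1 or 3 (adjusted p up to 0.0765), under DESeq2 (adjusted p = 0.0852) and with scaling to library totals. None of the loops of these pairs nor loop20462 spans EGR2.

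EGR3 has short loops of 60 kb from both ends of the gene, and their counts were highest at different times. No test compared these loops with each other. The gene (chr8:22687659-22693480) has its lower end in an anchor of loop17265, which reaches chr8:22620001-22630000 at the ends of BIN3, an adaptor protein gene, and CCAR2, a regulator of apoptosis. Its upper end lies in an anchor of loop17269, which reaches chr8:22750001-22760000, where no protein-coding gene ends. Loop17265 was highest at 6 h, and loop17269 was highest at 72 h.

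Loop17265 had 49.2, 46.5, 50.2 and 46.6 at 0 h, 78.4, 69.2, 77.8 and 69.97 at 6 h and 49.5, 60.2, 61.4 and 51.8 at 72 h. All libraries at 6 h lay above all at 0 h and at 72 h. Its change was 0.59 (SE 0.14, adjusted p = 0.00245) at 6 h, 0.19 (SE 0.14, adjusted p = 0.287) at 72 h and -0.40 (SE 0.13, adjusted p = 0.0218) from 6 h to 72 h. The 6 h change was 0.59 within replicates 1 and 2 (adjusted p = 0.0557) and 0.58 within replicates 3 and 4 (adjusted p = 0.132). From 6 h to 72 h it was -0.43 within replicates 1 and 2 (adjusted p = 0.117) and -0.38 within replicates 3 and 4 (adjusted p = 0.199). The fall from 6 h to 72 h was lost without 6 h replicate 1 or 72 h replicate 1 or 4 (adjusted p up to 0.0825) and under DESeq2 (adjusted p = 0.0964).

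Loop17269 had 75.3, 60.8, 64.0 and 78.5 at 0 h, 91.2, 75.7, 90.6 and 92.9 at 6 h and 129, 114, 108 and 112 at 72 h. All libraries at 72 h lay above all at 0 h and at 6 h, and 6 h overlapped with 0 h. Its change was 0.31 (SE 0.13, adjusted p = 0.131) at 6 h, 0.71 (SE 0.12, adjusted p = 2.58e-07) at 72 h and 0.41 (SE 0.11, adjusted p = 0.00583) from 6 h to 72 h. The 72 h change was 0.80 within replicates 1 and 2 (adjusted p = 7.19e-05) and 0.60 within replicates 3 and 4 (adjusted p = 0.00370), and the later rise was 0.54 within replicates 1 and 2 (adjusted p = 0.0177) and 0.26 within replicates 3 and 4 (adjusted p = 0.307). Loops of like length had a median of -0.19 at 72 h. With the length correction the 6 h value of loop17269 was 0.42 (adjusted p = 0.0273), which passed.

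Among the 14 other loops at EGR3, loop17261 and loop17272 rose at 6 h. Loop17261, of 490 kb across the gene from chr8:22420001-22430000 to chr8:22910001-22920000, had 29.7, 33.2, 30.1 and 17.1 at 0 h, 42.2, 44.9, 49.5 and 56.7 at 6 h and 31.0, 23.1, 33.3 and 34.8 at 72 h. It was highest at 6 h, where no library overlapped with 0 h or 72 h. The change was 0.73 (SE 0.17, adjusted p = 0.00245) at 6 h and -0.61 (SE 0.17, adjusted p = 0.00434) from 6 h to 72 h. The 6 h change was 0.45 within replicates 1 and 2 (adjusted p = 0.284) and 1.12 within replicates 3 and 4 (adjusted p = 0.00906), and the later fall was -0.65 within replicates 1 and 2 (adjusted p = 0.0542) and -0.61 within replicates 3 and 4 (adjusted p = 0.0693). Loop17272, of 110 kb beyond the gene, had 43.5, 51.3, 46.4 and 53.4 at 0 h, 71.6, 67.3, 53.8 and 72.4 at 6 h and 49.5, 53.2, 73.8 and 58.9 at 72 h, and its libraries at 6 h lay above those at 0 h. Its 6 h change was 0.46 (SE 0.14, adjusted p = 0.0317), with 0.54 within replicates 1 and 2 (adjusted p = 0.0944) and 0.33 within replicates 3 and 4 (adjusted p = 0.507), and was lost without 0 h replicate 1 or 3 or 6 h replicate 1 or 2 or 4 (adjusted p up to 0.172), under DESeq2 (adjusted p = 0.116) and with no filter on low counts.

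The loop with the highest mean of the EGR3 locus, loop17262 of 130 kb from SLC39A14, a gene for a transporter of zinc and other metals, fell. It had 162, 153, 163 and 155 at 0 h, 161, 110.3, 136 and 141 at 6 h and 123, 94.4, 118 and 137 at 72 h. All libraries at 72 h lay below all at 0 h. The change was -0.41 (SE 0.10, adjusted p = 9.44e-04) at 72 h, with -0.53 within replicates 1 and 2 (adjusted p = 0.00521) and -0.30 within replicates 3 and 4 (adjusted p = 0.0820). Loop17271, named after its values were seen, rose at 72 h by 0.57 (SE 0.14, adjusted p = 5.46e-04), and loop17273 rose from 6 h to 72 h by 0.38 (SE 0.14, adjusted p = 0.0323). The other 9 loops of the locus did not pass in any comparison.

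At ATF3, 1 of the loops with an anchor on the gene, loop2867, rose, and 3 short loops outside the gene fell. The gene (chr1:212565407-212620777) spans 55371 bp and has more than 1 promoter. The 2 starts with a promoter window here, 212565407 and 212615018, lie in no anchor. Other starts of the gene were not placed, so a promoter in the anchor of loop2867 or loop2861 was not looked for. Anchors of 2 loops touch the gene. Loop2867, of 130 kb, joins chr1:212470001-212480000 to chr1:212600001-212610000 inside the gene, and loop2861, of 560 kb, has the upper end of ATF3 and an end of GARIN4 in its anchor chr1:212620001-212630000.

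Loop2867 had 67.4, 65.5, 62.7 and 55.7 at 0 h, 94.1, 80.4, 93.4 and 74.8 at 6 h and 109, 98.4, 112 and 98.2 at 72 h. All libraries at 6 h lay above those at 0 h, and all at 72 h lay above those at 6 h. The log2 fold change was 0.42 (SE 0.13, adjusted p = 0.0279) at 6 h and 0.70 (SE 0.12, adjusted p = 9.36e-07) at 72 h, or 1.63-fold, and 0.28 (SE 0.12, adjusted p = 0.0712) from 6 h to 72 h, which did not pass, though it passed at a minimum count of 20 (adjusted p = 0.0443). The 72 h change was 0.61 within replicates 1 and 2 (adjusted p = 0.00346) and 0.80 within replicates 3 and 4 (adjusted p = 2.25e-04). The 6 h change was 0.37 within replicates 1 and 2 (adjusted p = 0.251) and 0.48 within replicates 3 and 4 (adjusted p = 0.210) and was lost without 0 h replicate 1 or 3 or 4 or 6 h replicate 1 or 3 (adjusted p up to 0.128), under DESeq2 (adjusted p = 0.0762) and with no filter on low counts. Loop2861 had lower counts, with means of 14.4 ± 3.08 before PMA, 10.6 ± 3.34 at 6 h (both SD, n = 4), then 14.1 ± 4.32 at 72 h (SD, n = 3), and its libraries overlapped at all times. Its changes were -0.38 (SE 0.26, adjusted p = 0.436) and -0.09 (SE 0.24, adjusted p = 0.799). Loop2868, from the same left anchor as loop2867 to a point beyond ATF3, spans the gene and had the highest mean of the locus, with 90.2 at 0 h, 116 at 6 h and 103 at 72 h, and its changes of 0.34 (SE 0.12, adjusted p = 0.0576) and 0.18 (SE 0.12, adjusted p = 0.229) did not pass. The 6 h change of loop2868 passed with the length correction, at 0.38 (adjusted p = 0.0327), with scaling to library totals (adjusted p = 0.0255), with a minimum count of 20 (adjusted p = 0.0243), with a batch term (adjusted p = 0.0440) and without 6 h replicate 2.

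Loop2865 fell most. It spans 90 kb from chr1:212360001-212370000, at the ends of PPP2R5A, a regulatory subunit of protein phosphatase 2A, and PACC1, a chloride channel gene, to chr1:212450001-212460000. It had 110.1, 98.7, 99.1 and 108 at 0 h, 82.4, 71.0, 73.6 and 73.6 at 6 h and 54.0, 50.2, 69.7 and 56.2 at 72 h. Each time lay wholly below the one before it. The log2 fold change was -0.46 (SE 0.12, adjusted p = 0.00789) at 6 h, -0.84 (SE 0.12, adjusted p = 7.47e-09) at 72 h, or 0.557 times the 0 h level, and -0.38 (SE 0.13, adjusted p = 0.0289) from 6 h to 72 h. Within batches the 6 h change was -0.45 within replicates 1 and 2 (adjusted p = 0.111) and -0.48 within replicates 3 and 4 (adjusted p = 0.145), and the 72 h change was -1.0 within replicates 1 and 2 (adjusted p = 2.72e-06) and -0.71 within replicates 3 and 4 (adjusted p = 8.41e-04). The change from 6 h to 72 h was -0.54 within replicates 1 and 2 (adjusted p = 0.0440) and -0.23 within replicates 3 and 4 (adjusted p = 0.470) and was lost without 6 h replicate 1 or 72 h replicate 1 or 2 or 4 (adjusted p up to 0.106) and under DESeq2 (adjusted p = 0.0973). Loop2864, which shares the right anchor of loop2865 and was named after its values were seen, also fell at 72 h, with -0.57 (SE 0.13, adjusted p = 1.80e-04).

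Loop2872, of 70 kb at the upper limit of the window, also fell. Its libraries had 84.0, 77.8, 86.6 and 86.4 at 0 h, 55.9, 72.9, 53.8 and 65.1 at 6 h and 50.4, 57.2, 45.8 and 41.1 at 72 h. Both 6 h and 72 h lay below 0 h in all libraries. The change was -0.41 (SE 0.13, adjusted p = 0.0370) at 6 h and -0.76 (SE 0.13, adjusted p = 1.19e-06) at 72 h. Within batches the 72 h change was -0.60 within replicates 1 and 2 (adjusted p = 0.00906) and -0.96 within replicates 3 and 4 (adjusted p = 5.67e-05), and the 6 h change was -0.33 within replicates 1 and 2 (adjusted p = 0.329) and -0.51 within replicates 3 and 4 (adjusted p = 0.157). The 6 h call was lost without 0 h replicate 1 or 3 or 4 or 6 h replicate 1 or 3 (adjusted p up to 0.133), under DESeq2 (adjusted p = 0.108), with scaling to library totals (adjusted p = 0.0667), with replicates 3 and 4 summed at every time (adjusted p = 0.0567) and with the length correction, where it was -0.30 (adjusted p = 0.177).

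Long loops across ATF3 rose from low counts. Loop2859, of 950 kb, shares the anchor of loop2872 at the upper limit of the window, and its other anchor lies outside it. It had 7.24, 5.70, 8.78 and 9.10 at 0 h, 15.7, 11.2, 26.9 and 14.5 at 6 h and 8.85, 16.1, 22.9 and 13.4 at 72 h. Its 6 h libraries lay above those of 0 h, while 72 h overlapped with 0 h. It rose by 0.94 (SE 0.28, adjusted p = 0.0212) at 6 h and 0.83 (SE 0.27, adjusted p = 0.0109) at 72 h. Within batches the 6 h change was 0.85 within replicates 1 and 2 (adjusted p = 0.247) and 1.00 within replicates 3 and 4 (adjusted p = 0.192), and the 72 h change was 0.73 within replicates 1 and 2 (adjusted p = 0.177) and 0.84 within replicates 3 and 4 (adjusted p = 0.0976). The 6 h call was lost without 0 h replicate 1 or 2 or 6 h replicate 3 (adjusted p up to 0.152), and the 72 h call without 72 h replicate 3 (adjusted p up to 0.107) and under DESeq2 (adjusted p = 0.0576). With the length correction the changes were 0.84 (adjusted p = 0.0596) and 0.57 (adjusted p = 0.0998).

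Loop2852, of 1100 kb from NEK2, a mitotic kinase gene, had 4.35, 3.80, 5.02 and 7.96 at 0 h, 3.92, 10.3, 9.91 and 12.1 at 6 h and 15.9, 13.1, 10.4 and 10.7 at 72 h. Its raw counts summed to only 21 at 0 h, 32 at 6 h and 53 at 72 h over the 4 libraries. All 72 h libraries lay above all 0 h libraries. It rose by 1.03 (SE 0.30, adjusted p = 0.00382) at 72 h, where loops of like length had a median of 0.33, and by 1.46 within replicates 1 and 2 (adjusted p = 0.00665), and it was too low to be tested within replicates 3 and 4. Loop2862 and loop2866, named after their values were seen, rose at 72 h by 1.03 (SE 0.25, adjusted p = 5.06e-04) and 0.77 (SE 0.17, adjusted p = 1.64e-04). Loop2869, of 510 kb from the left anchor of loop2867, had means of 33.3 ± 4.35 before PMA, 43.0 ± 11.3 at 6 h (both SD, n = 4), then 29.7 ± 8.18 at 72 h (SD, n = 3). Its 6 h and 72 h libraries overlapped, and it fell from 6 h to 72 h, with -0.53 (SE 0.18, adjusted p = 0.0199), and -0.20 within replicates 1 and 2 (adjusted p = 0.638) and -0.91 within replicates 3 and 4 (adjusted p = 0.0104), a call lost without 6 h replicate 3 or 72 h replicate 1 or 4 (adjusted p up to 0.145) and under DESeq2 (adjusted p = 0.0962).

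Calls at 72 h were counted by the position of the gene and by loop length. Of 25 tested loops that hold their gene between the anchors, 9 rose and 1 fell at 72 h, with 5 of the rises at EGR2 and 4 at ATF3. Of 37 that leave the gene outside, 3 rose and 7 fell. The 5 loops with an anchor on their gene had 3 that rose and none that fell at 72 h. Loop20443 and loop20453, which rose and are counted as holding EGR2 between their anchors, have an anchor 834 bp and 1996 bp from it. These distances are less than the 10 kb of an anchor. Of all tested loops, 16.7% rose and 16.9% fell at 72 h. The loops that rose at 72 h had a median length of 350 kb and those that fell 135 kb, with 360 kb over all members and 290 kb over all tested loops. These medians mix the loci: at ATF3 the loops that rose had a median of 700 kb and those that fell 90 kb, but at EGR2 the medians were 370 kb and 550 kb and at EGR3 100 kb and 130 kb. At EGR1 no loop rose. No association of the calls with position or length was tested. With the length correction 20 loops passed at 72 h, 12 that rose and 8 that fell. Over all tested loops 7151 passed with it, 3371 up and 3780 down.

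The comparisons of 6 h and of 72 h with 0 h share the 0 h libraries, so their calls are not set against each other here. A rise at 6 h followed by a fall from 6 h to 72 h, comparisons that share the 6 h libraries, was found in 4 loops, loop20458 and loop20461 at EGR2 and loop17261 and loop17265 at EGR3, against 0.605% of all tested loops (146 of 24132). EGR1 and ATF3 had no such loop.

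**Figure D4:**
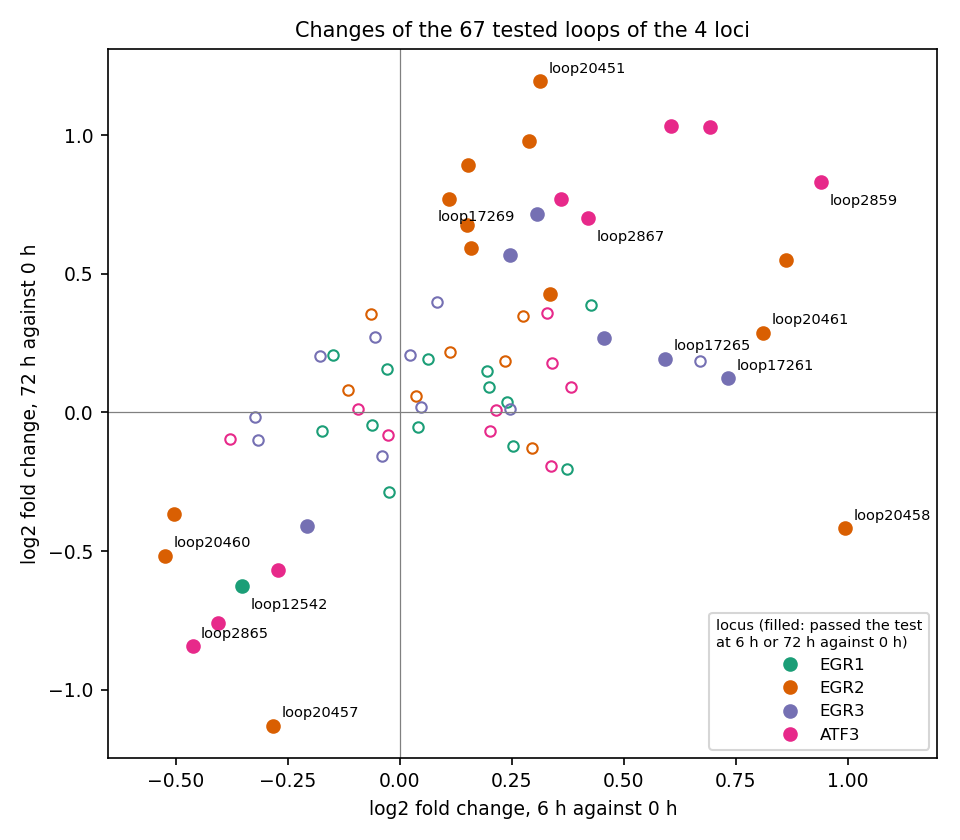
Each circle is 1 of the 67 tested loops, placed by its log2 fold change at 6 h (horizontal axis) and at 72 h (vertical axis), both against the same 0 h libraries, and coloured by locus. Filled circles passed the test at 6 h or 72 h. Loop20451 at EGR2 lies highest at 1.19, loop20457 lowest at -1.13, and loop20458 farthest right at 0.99 with -0.42 at 72 h.

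Summed over the tested loops of a locus, normalized contacts at EGR2 were 641 ± 13.8 before PMA, 700.4 ± 41.1 at 6 h (both SD, n = 4), then 762 ± 25.1 at 72 h (SD, n = 3). At EGR1 they were 727 ± 39.3, 719 ± 40.0 and 656 ± 36.2, at EGR3 828.97 ± 31.7, 896 ± 52.7 and 900.1 ± 31.8, and at ATF3 849 ± 4.34, 909 ± 50.7 and 839.7 ± 4.50, with the same n. The mean sum at 72 h was above that at 0 h at EGR2 and below it at EGR1. No test was made of these sums. The loop with the highest count held 16.8% of the sum at EGR1, 11.8% at EGR2, 15.7% at EGR3 and 11.96% at ATF3.

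The wider pathway was read from loops with an anchor on an end of 56 listed genes, of which 33 had a tested loop, 72 loops in all outside the 4 loci. At 6 h 1 of these rose and 4 fell (6.94%), and at 72 h 17 rose and 16 fell (45.8%), against the backgrounds of 6.41% and 33.6% given above. From 6 h to 72 h 12 rose and 8 fell (27.8%). The median log2 fold changes of the 72 loops were -0.03 at 6 h and -0.02 at 72 h. The list was chosen with earlier results of these data known, and it was not tested as a list.

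By role, 15 loops at feedback regulators and corepressors had 7 that rose and 1 that fell at 72 h (53.3%), with a median of 0.28, where 16.7% of all tested loops rose and 16.9% fell. With gene ends within 10 kb of an anchor, 13 of 31 rose and 5 fell. The loops that rose include 4 at 1 gene, SPRY2, an inhibitor of MAP kinase signalling, with 72 h changes of 1.18 to 1.46, and loop12603 at SPRY4, of the same family, with 0.98 (SE 0.18, adjusted p = 2.75e-06). The 39 loops at other immediate early transcription factors had 9 that rose and 8 that fell (43.6%), among them loop19893 at KLF6, a zinc finger factor, with 1.21 (SE 0.26, adjusted p = 8.03e-05), and loop30780 at JUND, an AP-1 subunit, with -0.86 (SE 0.12, adjusted p = 1.12e-09). Of the 39, those from loop18706 to loop18717 all lie at 1 gene, MYC. With gene ends within 10 kb, 11 of 51 rose and 13 fell. The 12 loops at partners of ATF3 and stress response genes had none that rose and 4 that fell at 72 h (33.3%, near the 33.6% of all tested loops), with a median of -0.19, among them loop23748 at ATF7, a related factor, with -0.67 (SE 0.13, adjusted p = 1.27e-05). With gene ends within 10 kb, 3 of 23 rose and 8 fell. The 6 loops at regulators upstream had 1 that rose and 3 that fell (66.7%), among them loop13722 at SRF, the factor that binds CArG boxes, with -0.42 (SE 0.10, adjusted p = 5.91e-04). With gene ends within 10 kb, 2 of 15 of these rose and 5 fell (46.7%). The loops named by role were chosen after their values were seen.

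Likeness to a gene's own loop was measured as the distance between the pairs of log2 fold changes at 6 h and 72 h, over the same 72 loops and 12 libraries. The nearest to loop20451 at EGR2 were loop25757 and loop25758, both at SPRY2, with 0.20 at 6 h and 1.18 at 72 h and with 0.16 at 6 h and 1.18 at 72 h, and loop19893 at KLF6, with 0.55 at 6 h and 1.21 at 72 h. The nearest to loop12542 around EGR1 were loop18707 at MYC, with -0.35 at 6 h and -0.51 at 72 h, loop23748 at ATF7 and loop18656 at TRIB1. For EGR3, loop17265 lay nearest to loops at MAPK3, ZFP36L1 and NR4A2, and loop17269 to loops at PRKCE, KLF6 and JUN. Loop2861 at the upper end of ATF3, which did not pass, lay nearest to loops at MYC, FOS and FOSB.

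In the authors' deposited table, 8 of the 69 loops are classed as gained, 4 as lost and 57 as static. All 12 gained or lost loops passed at 6 h or 72 h here. Of the 28 loops that passed here at 6 h or 72 h, 16 are static in the authors' deposited table. Of these, loop12542, loop17265, loop20460, loop17271 and loop2864 have a deposited adjusted p under the threshold used here, from 0.00172 to 0.0456. Loop20452, loop20453, loop20462, loop17262 and loop17272 lie above that threshold. Loop20441, loop20443, loop20447, loop2852, loop2859 and loop2862 have no deposited adjusted p. The static class thus does not mean a failed test at that threshold. The adjusted p columns for 6 h and 72 h in the authors' deposited table hold the same value in all 18699 loops that have one. Loop20451 at EGR2 is gained in the authors' deposited table, with a log2 value of 0.08 for 6 h and of 1.199 for 72 h. Loop20458 is classed as lost in the authors' deposited table, with log2 values of 0.80 at 6 h and -0.14 at 72 h.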

How the data were processed

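In situ Hi-C of K562 cells at 0 h, 6 h and 72 h of 25 nM PMA was given by the authors as 1 table of raw contact counts, with 33914 loops in rows and 30 technical replicates in columns, per the file headers. The submitters' processing notes list hg38, Juicer 1.5.6 and DESeq2 without their roles, and the loop caller is not given in the sources used here. The deposited log2 fold changes and the deposited adjusted p-value are the authors' own, and any shrinkage of these log2 values is not given in the sources used here. Other deposited values are anchor positions, which count from 0 and are given here from 1.

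Technical replicates were summed into 12 libraries, of which 94.9% to 96.8% of contacts lay in tested loops. The 3 times were compared by edgeR 4.0.16 (R 4.3.3) in 1 quasi-likelihood model without covariates, after filterByExpr (minimum count 10, minimum total 15) and scaling by TMM, with p-values adjusted over 24132 loops by Benjamini-Hochberg and a prior count of 2. SEs were obtained from each log2 fold change and the square root of its F statistic. The labels call the replicates biological without saying whether cultures were separate, so p-values measure the spread between these libraries. Raw counts hold no correction for local background or loop length. Counting error alone (95%, Poisson) spans 19.4 to 41.6 for 29 contacts and 4.80 to 18.4 for 10.

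Counts were simulated for 72 h against 0 h with 200 changed loops, and 23652 loops were tested. The test called 73% of 2-fold and 32% of 1.5-fold changes, with 2 false calls among 107. In the data 33.6% of tested loops passed at 72 h, and a changed share of that size was not simulated. Genes were placed on anchors from RefSeq GRCh38.p14 gene coordinates: 16.3% of 43806 anchors held a gene end, against 12.2% and 12.5% after shifts of -100 kb and 100 kb. Named loops were those with an end of EGR1, EGR2, EGR3 or ATF3 in an anchor (or nearest to the gene), the highest count, the largest called rise and fall per locus and comparison, and all loops called at 6 h. Others are named with a remark or as counts by anchor. The members and gene lists were chosen with earlier results of these data known. Alternatives were DESeq2 1.42.0, other scalings, filters and thresholds, a replicate block, a batch term, fits within batches, a length offset (loess, span 0.3), summed replicates, windows holding both anchors and leaving out each library.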

Additional observations from a re-analysis of the deposited data

Results flagged for a closer look

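In loop12544 at EGR1, 0 h replicate 2 had 18.0 normalized contacts, far below the other 3 libraries at 25.1 to 26.2. In loop17269 at EGR3, 6 h replicate 2 had 75.7, below the others at 90.6 to 92.9. Of 46 groups of 4 libraries examined, these 2 stood out, where 2.3 would be expected by chance.

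The changes of 10 named loops against 0 h differed between 72 h and 6 h in edgeR's test of the difference itself, which is the comparison of 72 h with 6 h. Loop12544, loop20451, loop20458, loop17269, loop17261 and loop2869 were named for the largest called rise or fall in that comparison at their locus, so their passing follows from the choice. The log2 value, the change at 72 h less that at 6 h, was 0.88 for loop20451 at EGR2 and 0.41 for loop17269 at EGR3. It was -1.41 for loop20458, -0.85 for loop20457 and -0.52 for loop20461 at EGR2. At EGR3 it was -0.61 for loop17261 and -0.40 for loop17265, at EGR1 -0.58 for loop12544, and at ATF3 -0.38 for loop2865 and -0.53 for loop2869.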

How the results depend on the processing

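Of 36 changes of named loops that passed, 10 passed under all alternatives that gave a value, 21 passed whichever library was left out, 13 were lost under DESeq2, 5 were lost with the length correction, 2 were lost with replicates 3 and 4 summed at every time (loop12542 and loop2872 at 6 h) and 0 reversed their direction. The 13 loops that passed at 6 h against 0 h became 5 under DESeq2, 3 within replicates 1 and 2, 2 within replicates 3 and 4, 7 at an adjusted p under 0.01, 6 with a fold change of at least 1.5 and 7 of 32 with both anchors in the window, and 6 to 13 with 1 library left out. Among the 13, loop20458, loop20452 and loop2859 got no adjusted p from DESeq2 at 6 h and were counted as not passed. The 23 that passed at 72 h became 13 within replicates 3 and 4, 13 with both anchors in the window and 19 to 24 with 1 library left out. The 17 that passed between 6 h and 72 h became 7 under DESeq2, 7 within replicates 1 and 2, 4 within replicates 3 and 4, 8 at an adjusted p under 0.01, 7 with the fold limit, 11 with both anchors in the window and 8 to 18 with 1 library left out. Within a batch each time has 2 libraries, and the window rule leaves 32 tested loops. The cause of the other shifts was not tested. Over all tested loops, with those lacking an adjusted p counted as not passed, the calls at 6 h went from 1546 to 479 under DESeq2. They went to 526 within replicates 1 and 2, 213 within replicates 3 and 4, 545 under 0.01 and 663 with the fold limit. Those between 6 h and 72 h went from 4945 to 1989, 2400, 1690, 2421 and 2766 under the same settings in turn. At 72 h, 8105 became 3973 of 23248 within replicates 3 and 4. With 1 library left out, the calls were 709 to 1556 at 6 h, 6554 to 8477 at 72 h and 3676 to 5115 between 6 h and 72 h. With gene ends within 10 kb of an anchor, the pathway list had 120 loops, of which 8 passed at 6 h, 60 at 72 h and 41 between 6 h and 72 h.

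With the replicate number as a block, 15, 23 and 18 loops passed in the 3 comparisons, and over all tested loops 1938, 8560 and 5472 passed. The block ended 0 of the 36 calls of named loops and added 2, loop2868 at 6 h (log2 fold change 0.35 (adjusted p = 0.0227)) and loop12542 from 6 h to 72 h (-0.28 (adjusted p = 0.0435)). Libraries with the same number correlated by 0.0146 to 0.124 and others by -0.0738 to 0.0441 in their deviations from group means, and 10 of 12 libraries had their best partner at the same number, which is a hint from the data and not from the design. Counts were small for the longest loops, such as 21 raw contacts at 0 h in loop2852, and this depth limits what can be seen there.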
